A study of Caenorhabditis elegans with 4 samples.

Results

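Closely spaced NHR-21 peaks in the centres of 4 autosomes were examined. Peaks were chosen by position alone. A peak was counted when the midpoint of its interval in the combined peak list lay in the central 50% of chromosome II, III, IV or V and when another interval of that list lay on the same chromosome with at most 5000 bp between the facing edges. By this rule 224 of the 1137 combined peaks were closely spaced, which is 19.7% of the list. They were 44.0% of the 509 peaks in these centres, and the other 285 centre peaks are called isolated here. Because the peaks were selected on their called start and end in the combined list, their number, gaps and grouping are a description, and no test was made on them.

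The data come from chromatin immunoprecipitation followed by sequencing (ChIP-seq), in which crosslinked protein is collected with an antibody and the DNA bound to it is sequenced. The labels give 2 ChIP and 2 Input libraries, all from whole L2 hermaphrodites of strain OP361 grown at 20 °C. Both groups share the genotype: the mutant allele unc119(ed3) and the transgene wgIs361, which holds nhr-21::TY1-GFP-3xFLAG and unc119 and was brought in by bombardment. The labels give 3 outcrosses. The ChIP libraries were made with a goat antibody against GFP, and the Input libraries from lysate set aside before that step. The free-text descriptions go against the titles, since the libraries titled ChIP are described as input, and the titles were followed. Whole larvae pool all cell types, so the cells in which a site was bound are not known. Peak lists of ChIP replicate 1, ChIP replicate 2 and the combined call were used, and the Input libraries were not analysed here. Whether the replicates were separate cultures is not in the labels. The files give no read counts, so depth is unknown.

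NHR-21 is a nuclear hormone receptor, one of a family of transcription factors that bind DNA through a zinc-finger domain and often respond to small lipophilic ligands. The family is greatly expanded in nematodes. The centres of *C. elegans* autosomes recombine less than the arms, hold fewer repeats and are rich in conserved genes, which are compact and often lie close to each other. In ChIP-seq a transcription factor appears as short enriched intervals, and several such intervals can stand beside each other at 1 locus. Positions are WormBase WS180, counted from 1. No annotation or genome of that build was used here, so the peaks are given by position, without neighbouring genes or sequence.

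The 224 peaks formed 88 runs, where a run is a chain of combined peaks with gaps of at most 5000 bp. Every interval in these runs met the rule. Most runs were short: 54 held 2 peaks, 22 held 3, 11 held 4 and 1 held 6. The median run spanned 5162.5 bp, from 1817 to 20815 bp, and peaks covered a median of 53.0% of the span. The nearest peak outside a run was a median of 27055 bp away, and the rule puts it beyond 5000 bp in every run.

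Chromosome IV held the most closely spaced peaks, 70 in 28 runs, followed by III with 57 in 22 runs. II had 49 and V had 48, each in 19 runs. Per Mb of centre this made 8.31 peaks on III, 8.1 on IV, 6.52 on II and 4.62 on V. Closely spaced peaks were 49.3% of all centre peaks on IV and 47.6% of those on II. They were 44.9% on III and 35.04% on V. V was thus the sparsest by both measures. Over the 4 centres the share of 44.0% had a 95% Wilson interval of 39.8 to 48.3%, against 37.8% of 262 peaks on the arms of the same autosomes (32.1 to 43.8%) and 41.03% of 234 on X (34.9 to 47.4%). The intervals overlap, and the differences were not tested.

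The runs held 136 pairs of neighbours. Their edge-to-edge gaps had a median of 1409.5 bp, with quartiles of 602.25 and 2405.5 bp. The distance between peak centres had a median of 2622.5 bp. Gaps of at most 500 bp separated 29 pairs, and 51 pairs stood within 1000 bp. The shortest gap was 203 bp, which was also the smallest anywhere in each of the 3 peak lists. The 5 shortest gaps, of 203 and 207 bp and then 220, 224 and 227 bp, were on III (3 pairs) and V (2 pairs). By chromosome the median gap was 1319 bp on V, 1366 bp on III, 1408.5 bp on II and 1562 bp on IV.

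**Figure D1:**
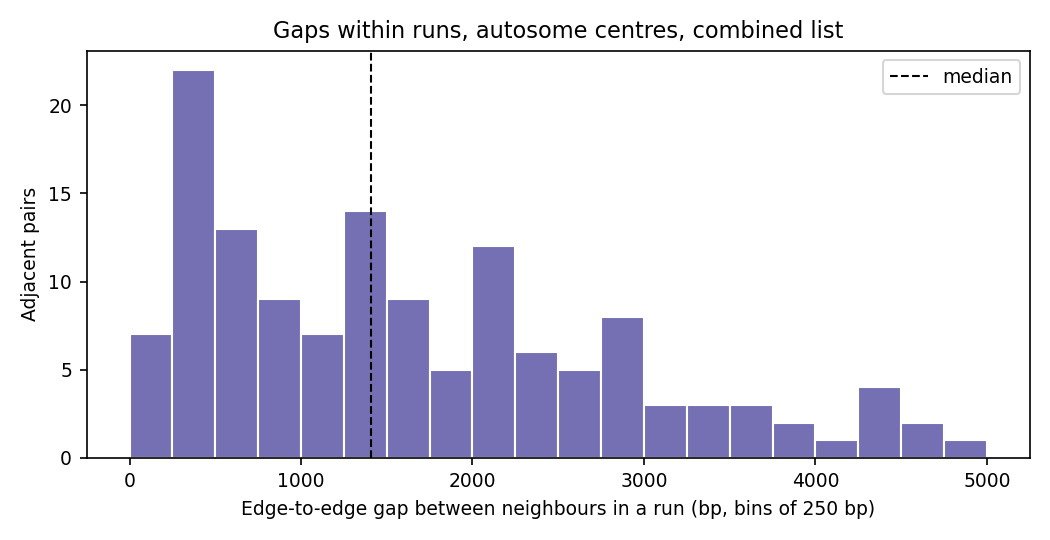
Edge-to-edge gaps (bp, horizontal axis) of the 136 pairs of neighbours in the runs, counted in bins of 250 bp (vertical axis, number of pairs), with the median of 1409.5 bp as a dashed line. The bin from 250 to 500 bp is the fullest, with 22 pairs, and the bin below it holds 7. No gap in the combined list is under 203 bp, so that lowest bin is filled only from 203 bp up.

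At the 5000 bp limit, the members with the most distant neighbours were IV 4720544 to 4720820, 4555 bp from its neighbour, and II 6842434 to 6843280, at 4506 bp. The longest gap inside a run was 4983 bp, on II. Just outside the limit stood III 3875606 to 3876065, at 5163 bp, and II 7272576 to 7272789, at 5180 bp. Next to these came IV 12710943 to 12711368 and IV 12715835 to 12716415 inside the limit, 4466 bp from each other, and IV 12396730 to 12397306 outside it, at 5240 bp. The −log10 q values were 11.9, 12.2, 5.38 and 9.54 inside the limit and 4.88, 4.98 and 6.98 outside it. At the borders of the centres, the nearest closely spaced peak inside was III 3456209 to 3456593, 26451 bp from the border, and the nearest outside was IV 4299863 to 4300297, 19622 bp beyond it. No run crossed a border.

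The q value of a peak is the adjusted p-value assigned by PeakSeq, the authors' peak caller, and is given on the −log10 scale, where a larger value is a smaller q. Strength below means rank by q within a list and is no measure of occupancy. Closely spaced peaks had a median −log10 q value of 8.93 in the combined list (quartiles 5.9 and 15.2), against 7.33 for isolated centre peaks (5.11 and 13.3). In width the medians were 804.5 bp for closely spaced peaks and 605 bp for isolated ones. Intervals wider than 2000 bp made up 15.6% of the closely spaced peaks, 35 in number, against 9.82% or 28 of the isolated ones. The distributions overlap widely, the combined list is the one the rule used, and neither difference was tested. Of the 100 strongest combined peaks, 20 were closely spaced and 21 were isolated centre peaks. In the whole list of 1137 these were 224 and 285. The 20 are thus near the list share of 19.7% and are not a result about close spacing.

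Runs differed in how far their strongest peak stood above the others. The strongest peak of a run had a median −log10 q value of 15.3, and the next strongest a median of 7.14. In 42 of the 88 runs the strongest had at least 2 times the −log10 q value of the next, while in 20 runs the ratio was under 1.2. A strongest value above a second follows from ranking, and the size of the step depends on ranking too. No step was computed for peaks grouped without regard to runs, so these counts are a description. Median widths were 1103 bp for the strongest peaks and 722.5 bp for the next. The strongest peak was also the widest in 54 runs, or 61.4%. By run length this was 35 of the 54 runs of 2, 11 of the 22 runs of 3 and 7 of the 11 runs of 4. In short runs such a match is frequent under random order as well, and no level for that was computed. Over all 224 peaks the −log10 q value and the width had a Spearman's rho of 0.47, a description across peaks of 1 list. The strongest peak had no fixed place. It came first along the chromosome in 28 and last in 26 of the runs of 2. It stood at an end in 17 of the 22 runs of 3, where 2 of the 3 places are ends. In the runs of 4 it stood at an end in 5 and inside in 6.

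**Figure D2:**
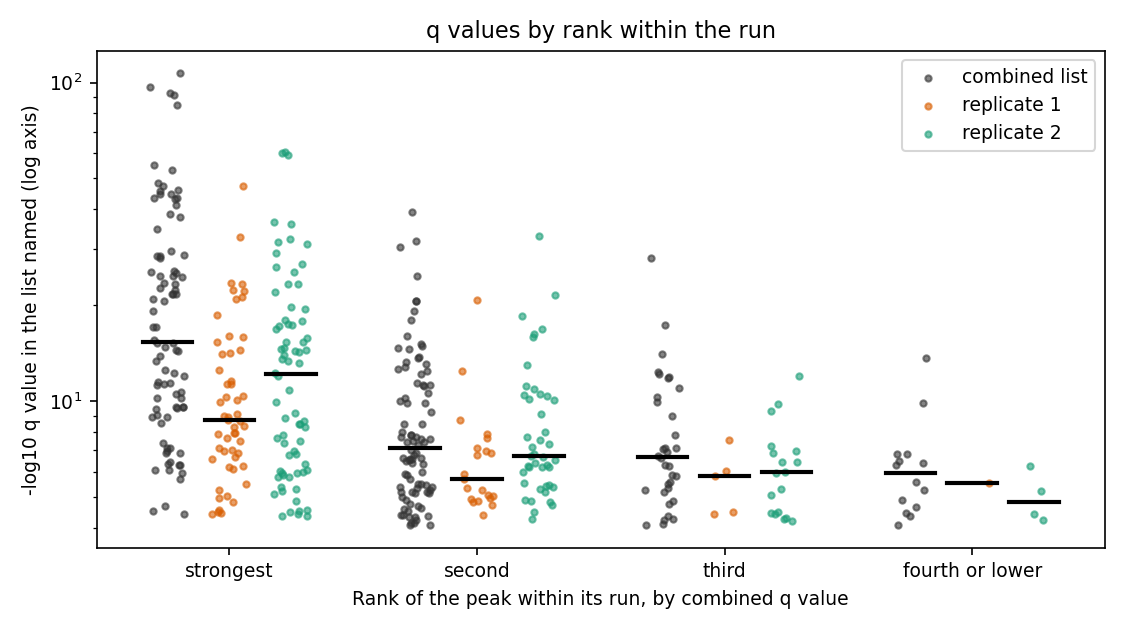
The −log10 q value (vertical log axis) of each closely spaced peak by its rank within the run (horizontal axis), in the combined list and, where the peak was found, in replicates 1 and 2. Each point is a peak and each bar a median. Strongest peaks have medians of 15.3 in the combined call, 8.71 in replicate 1 and 12.1 in replicate 2, and the next strongest 7.14, 5.7 and 6.72.

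By the ratio of −log10 q values, the steepest step was in the run on II from 10541795 to 10556105. Its broad left peak, II 10541795 to 10552976, was 11182 bp wide and had −log10 q values of 91.2 in the combined call, 11.5 in replicate 1 and 22.1 in replicate 2. Its right partner, II 10555264 to 10556105, had 5.9 in the combined list and was found in neither replicate. At the other end were runs of near-equal peaks. The smallest ratio, 1.01, was on III from 7727880 to 7738255, with combined values of 11.2 and 11.1.

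The replicate lists were set against the runs to ask whether each library alone also called the neighbours. A peak was taken as found when a replicate region shared at least 1 bp with it. Replicate 1 found 80 of the 224 closely spaced peaks, or 35.7% (95% Wilson interval 29.7 to 42.2%), where 34.0% of the whole combined list was found. Replicate 2 found 137, or 61.2% (54.6 to 67.3%), against 55.9% of the whole list. At least 1 replicate found 141, or 62.9%, against 57.9%, and both found 76, or 33.9%, against 32.1%. Shares this near those of the whole list are not a result about close spacing. Isolated centre peaks were found at 30.2% (25.1 to 35.7%) in replicate 1 and 53.7% (47.9 to 59.4%) in replicate 2. These intervals cover counting error only and take neighbours as independent.

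In the middle classes of q value, closely spaced and isolated peaks were found at similar shares. Between −log10 q values of 10 and 20, replicate 1 found 30 of 53 closely spaced peaks (56.6%) against 37 of 62 isolated ones (59.7%), and replicate 2 found 88.7% against 90.3%. Between 6 and 10, replicate 1 found 13.8% of 65 closely spaced peaks against 10.5% of 76 isolated ones, and replicate 2 found 55.4% against 52.6%. At 20 and above, replicate 1 found 41 of 47 closely spaced peaks (87.2%) against 40 of 41 isolated ones (97.6%), and replicate 2 found 97.9% against 100.0%. Between 4 and 6, replicate 1 found 0 of 59 closely spaced peaks against 1 of 106 isolated ones, and replicate 2 found 13.6% against 15.1%. The differences were not tested. Median widths of closely spaced and isolated peaks were 551 bp against 488 bp between 4 and 6, 681 bp against 558.5 bp between 6 and 10, and 889 bp against 700.5 bp between 10 and 20. At 20 and above they were 1491 bp against 1493 bp.

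Within a run the strongest peak by combined q value was the one found most often in each replicate. Replicate 1 found 53 of the 88 strongest peaks (60.2%), 21 of the 88 next strongest (23.9%) and 6 of the 48 others (12.5%). Replicate 2 found 72 (81.8%), 43 (48.9%) and 22 (45.8%) of the same peaks. Below the strongest the order did not hold in replicate 2, which found 18 of the 34 peaks ranked 3 (52.9%), more than of those ranked 2. Replicate 1 found 1 peak in 34 runs, 2 or more in 21 and 0 in 33. Replicate 2 found 2 or more peaks in 45 runs, 1 in 31 and 0 in 12. In the 34 runs with 1 peak found in replicate 1, that peak was the strongest of the run in 33. In replicate 2 it was the strongest in 28 of 31. Among isolated peaks, replicate 1 found 10.5% between −log10 q values of 6 and 10 and 97.6% at 20 and above. Recovery thus rose with q value outside the runs as well, so this order is not a result about runs. The labels do not say which reads went into the combined call. If they were those of the replicates, recovery by a replicate is no independent evidence for a peak.

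Where a replicate found 2 or more peaks of a run, its own strongest was mostly the combined strongest, in 19 of 21 runs for replicate 1 and in 39 of 45 for replicate 2. Of the 20 runs with 2 or more peaks found in both replicates, 16 had the same strongest peak in all 3 lists. The strongest peak differed mainly where combined values were close. In the runs whose strongest peak was under 1.2 times the next in −log10 q value, it differed in 2 of 4 in replicate 1 and in 4 of 8 in replicate 2. These counts include runs in which the combined strongest peak was not found in that replicate. They are III 8974600 to 8987295 in replicate 1 and II 6842434 to 6849847 in replicate 2. Changes at a larger step were seen in replicate 2 on II from 4745188 to 4752303 and on V from 13656203 to 13659570. On II the middle peak led in the combined list with 20.8, against 12.4 for the first peak. In replicate 2 the first peak led, with 6.43 against 5.11. The last peak of that run, with 14.8 in the combined list, was found in neither replicate. On V the left peak led with 23.3 in the combined list and 11.3 in replicate 1, against 16.0 and 7.86 for the right peak. In replicate 2 the right peak of the run on V led, with 16.9 against 12.0.

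No replicate region joined neighbouring peaks of a run. Of the 136 pairs, 0 were covered by a single region in replicate 1 and 0 in replicate 2. In the whole combined list 0 of the 409 regions of replicate 1 joined neighbours. Of the 662 regions of replicate 2, 1 did, on an arm of V. Joining was thus near absent everywhere, and the counts of 0 are not a result about close spacing. Replicate 1 gave each peak its own region in 21 pairs (15.4%), found 1 peak in 54 and none in 61. Replicate 2 gave each its own region in 55 pairs (40.4%), found 1 in 57 and none in 24. Where 1 peak of a pair was found it was the stronger by combined q value in 50 of 54 pairs in replicate 1 and in 52 of 57 in replicate 2. Because recovery rose with q value among isolated peaks too, this is not a result about pairs. A total of 57 pairs were separate in at least 1 replicate, 19 of them in both, and 23 pairs had no peak found in either.

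Pairs with the shortest gaps were the ones in which a replicate most often called both peaks separately. Of the 29 pairs with gaps of at most 500 bp, replicate 1 called both peaks separately in 10 (34.5%) and replicate 2 in 17 (58.6%). Of the 50 pairs with gaps above 2000 bp these were 2 (4.0%) and 14 (28.0%). The order did not hold for pairs with at least 1 peak found. Replicate 2 found no peak in 10.3% of pairs with gaps of at most 500 bp and in 5.7% of those from 1001 to 2000 bp. The pairs with short gaps were also the stronger ones: the weaker peak of a pair had a median combined −log10 q value of 7.68 at gaps of at most 500 bp and 5.57 at gaps above 2000 bp, and the stronger peak 24.6 and 11.3. The part of q value in this pattern was not tested. Of the 19 pairs separate in both replicates, 15 had gaps of at most 1000 bp.

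**Figure D3:**
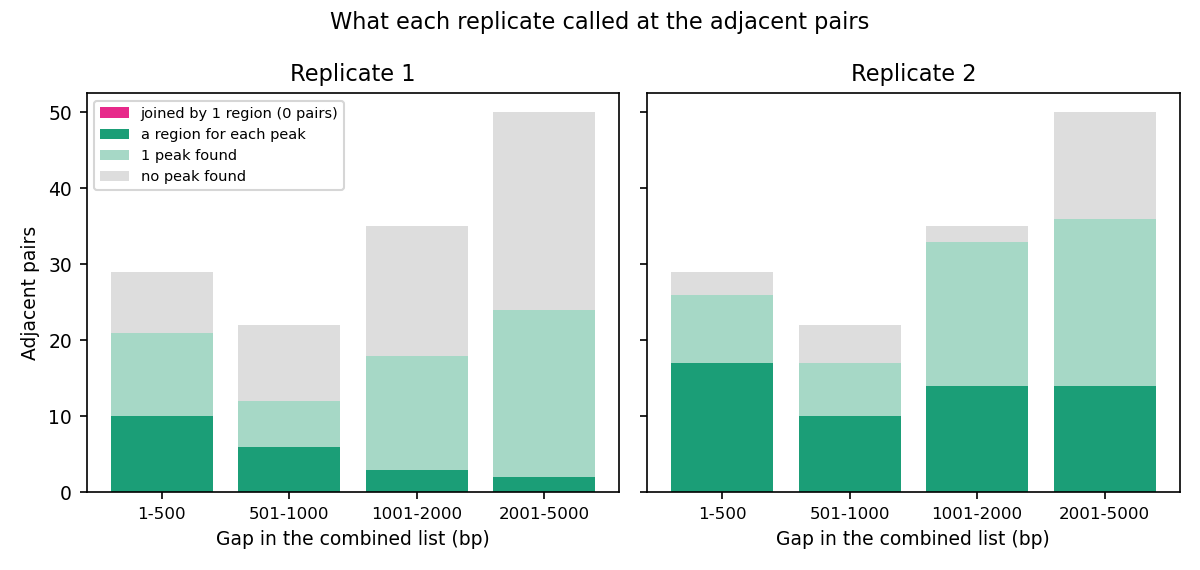
What replicate 1 (left) and replicate 2 (right) called at the 136 pairs, by gap in the combined list (horizontal axis, bp); bar heights are numbers of pairs. Pairs with a region for each peak number 10, 6, 3 and 2 in replicate 1 and 17, 10, 14 and 14 in replicate 2 from the shortest to the longest gaps, and 0 pairs are joined by 1 region.

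Most replicate regions were narrower than the combined peak they overlapped, and most gaps between pairs seen separately were wider in the replicates. Regions covered a median of 73.8% of a found peak in replicate 1 and 88.8% in replicate 2. Midpoints of the strongest region and of the peak differed by a median of 69 bp in replicate 1 and 32 bp in replicate 2. For pairs seen separately, the gap in replicate 1 was wider than in the combined list in 21 of 21 pairs, by a median of 400 bp, and in replicate 2 in 45 of 55, by a median of 87 bp. The median gap of these pairs was 1364 bp in replicate 1 and 1404 bp in replicate 2, whereas in the combined list it was 503 and 1067 bp for the same pairs. The widest difference was at the shortest combined gap, the 203 bp between III 7727880 to 7731782 and III 7731986 to 7738255. The replicate regions inside these peaks stood 5705 bp apart in replicate 1 and 4982 bp apart in replicate 2. Replicate regions covered only 16.3% and 25.9% of the wider right peak, at its far end.

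Splitting went the other way. Replicate 1 cut 3 of the 80 closely spaced peaks it found into several regions, and replicate 2 cut 3 of its 137. Both cut IV 8527292 to 8531064, into 3 regions in replicate 1 and 2 in replicate 2, and IV 8815971 to 8819874, into 2 in each. Replicate 1 alone cut III 3862862 to 3867786 into 3, and replicate 2 alone cut II 8732543 to 8734792 into 2. All 4 were wider than 2000 bp. Of the isolated centre peaks found, replicate 1 cut 3 of 86 and replicate 2 cut 4 of 153. In the same order these were 5 of 98 and 4 of 140 on the arms and 3 of 87 and 2 of 148 on X. On chromosome I they were 0 of 36 and 3 of 58. Splitting was thus rare in every set and is not a result about close spacing.

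Each replicate's own list was also searched by the same rule. Of its centre regions, 59 of 179 in replicate 1 (33.0%, 26.5 to 40.1%) and 121 of 307 in replicate 2 (39.4%, 34.1 to 44.98%) had a neighbour within 5000 bp in that list. Of these, 46 in replicate 1 and 106 in replicate 2 overlapped a closely spaced combined peak. The others were 8 and 10 regions on isolated combined peaks and 5 and 5 on no combined peak. In each replicate 14 of these regions had as nearest neighbour another piece of the same combined peak. The longest run in either replicate held 4 regions.

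The longest run in the 4 centres lay on II from 8730876 to 8751690, with 6 peaks over 20815 bp. The fifth peak along it, II 8743067 to 8748037, was the strongest, with −log10 q values of 92.4 in the combined call, 11.3 in replicate 1 and 32.2 in replicate 2. The fourth, II 8741741 to 8742672, stood 394 bp to its left and had 31.8, 7.12 and 18.5 in the same order. These were the only peaks of the run found in replicate 1. Replicate 2 also found the second peak, II 8732543 to 8734792 (28.1 in the combined list, 7.23 in replicate 2), as 2 regions, as well as II 8739776 to 8740797 (9.82 and 4.22) and II 8750842 to 8751690 (13.7 and 5.22). The first, II 8730876 to 8731390, had 6.38 in the combined list and was found in neither. The gap of 4983 bp between II 8734792 and II 8739776 was the longest in any run, so this run rests on a gap just inside the limit.

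**Figure D4:**
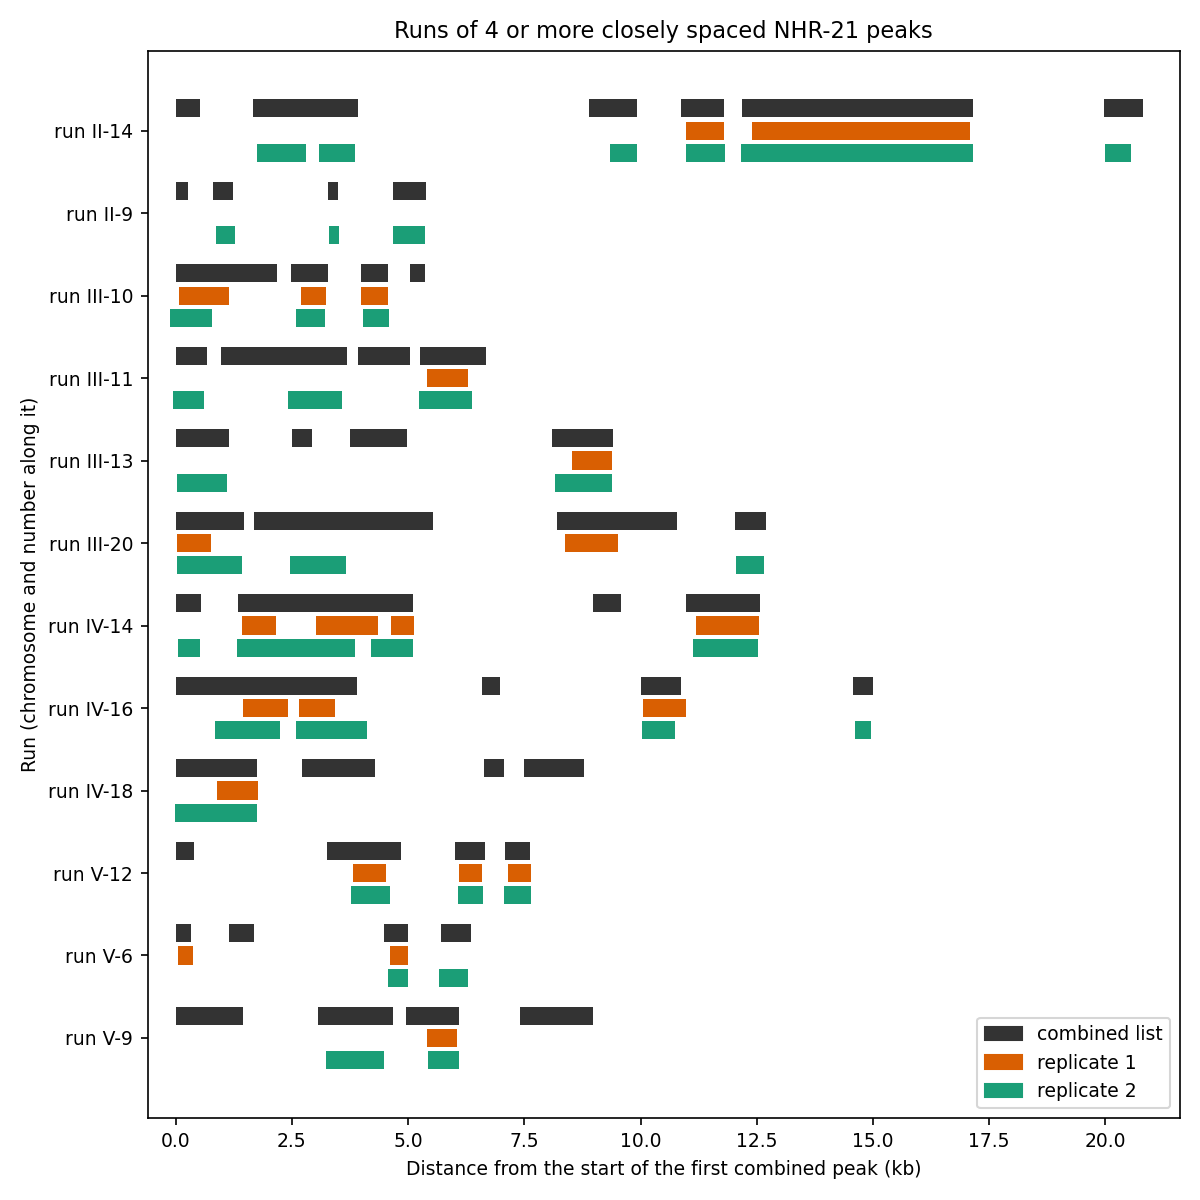
The 12 runs with 4 or more peaks, each aligned to the start of its first combined peak (horizontal axis, kb) and named by chromosome and number along it. Bars are called intervals, in the combined list (black) and the regions of replicate 1 (orange) and replicate 2 (green) that overlap them. Replicate regions sit inside or near single combined peaks and none reaches across 2 of them.

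The run on III from 5917132 to 5922486 was the shortest of the runs of 4, with a span of 5355 bp and gaps between 303 and 718 bp. Its 2 inner peaks were near equal. III 5919604 to 5920398 had −log10 q values of 25.5 in the combined call, 10.4 in replicate 1 and 17.2 in replicate 2. III 5921117 to 5921709 had 24.6, 8.71 and 16.3. The first peak, III 5917132 to 5919300, had 17.3, 7.54 and 9.31. All 3 were called separately in both replicates. The fourth, III 5922168 to 5922486, was among the weakest of the combined list at 4.07 and was found in neither.

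On V from 11795275 to 11802894, 3 neighbours were again called separately in all 3 lists. V 11798533 to 11800119 had −log10 q values of 55.0 in the combined call, 22.2 in replicate 1 and 35.9 in replicate 2. V 11802356 to 11802894 had 39.2, 20.7 and 33.05. The peak between them, V 11801277 to 11801930, was weaker in every list, with 12.1, 5.83 and 9.77. In both libraries the middle peak was thus weaker than the peaks on either side. The remaining peak of the run, V 11795275 to 11795662, had 5.56 in the combined list and was found in neither.

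A run of 3 on III, from 8795424 to 8802747, was the only run of more than 2 peaks with every peak found in both replicates. Its combined −log10 q values were 7.09, 13.1 and 28.2 along the chromosome. In replicate 1 they were 4.49, 4.91 and 9.08, and in replicate 2 they were 6.96, 7.97 and 13.6, the same order. In 9 runs every peak was found in both replicates, 4 on V, 3 on III, 2 on IV and 0 on II. The strongest of these was on V, where V 7414760 to 7417399 had 85.0 in the combined call, 32.7 in replicate 1 and 59.2 in replicate 2. Its partner V 7413042 to 7414532, 227 bp away, had 30.5, 12.4 and 21.5. Another on V held V 6247265 to 6248078, with 44.7, 16.04 and 31.2, beside V 6246262 to 6246959, with 20.6, 6.97 and 15.9, at a gap of 305 bp.

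Of the 15 closely spaced peaks with the smallest combined q values, 14 were found in both replicates and 1 in neither. Around several of them the neighbours were found less fully. The strongest closely spaced peak of all, IV 8527292 to 8531064, had −log10 q values of 107 in the combined call, 14.1 in replicate 1 and 59.9 in replicate 2. Around it in a run of 4, IV 8525950 to 8526486 had 10.3 and was found only in replicate 2, IV 8534934 to 8535537 had 4.89 and was found in neither, and IV 8536937 to 8538525 had 14.6 and was found in both. III 3862862 to 3867786, with 96.8, 47.3 and 60.7 in the same order, stood 1333 bp from III 3869120 to 3870442, which had 7.8 and was found in neither replicate. On V, V 5699823 to 5701925 had 53.2, 22.4 and 26.4, while both of its neighbours, at 4.38 and 4.22, were found in neither.

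In 12 runs no peak was found in either replicate, 5 on II, 3 on III, 3 on IV and 1 on V. Their strongest peaks had a median combined −log10 q value of 6.39. The exception was II 5328520 to 5341874, the widest peak of the set at 13355 bp, with 46.05 in the combined list. It stood 4438 bp from II 5346313 to 5346664, with 5.5. After it, the strongest closely spaced peaks found in neither replicate were II 4750953 to 4752303 (14.8), II 9600967 to 9601915 (12.6), II 6849206 to 6849847 (12.5) and III 7202563 to 7203784 (11.2). The 4 strongest were thus all on II.

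Chromosome II had the lowest share of closely spaced peaks found in each replicate list. Replicate 1 found 7 of its 49 closely spaced peaks (14.3%), against 42.1% on III, 38.6% on IV and 45.8% on V, and called both peaks separately in 1 of 30 pairs. Replicate 2 found 25 (51.02%), against 56.1%, 70.0% and 64.6%, and called both peaks in 10 of the 30 pairs. Replicate 1 found 18.5% of the isolated peaks on II, 37.1% on III, 18.1% on IV and 41.6% on V, so II was not the lowest there. Replicate 2 found 38.9% of the isolated peaks on II, 57.1% on III, 54.2% on IV and 59.6% on V. The median combined −log10 q value of closely spaced peaks was 9.6 on II, against 9.23, 8.5 and 8.15 on III, IV and V. Among the 76 peaks found in both replicates, the combined −log10 q value divided by the sum of the replicate values had a median of 1.49 over the 7 peaks on II (1.12 to 2.71). It was 0.97 over the 69 on III, IV and V (0.62 to 1.76). The ranges overlap, but all 7 peaks on II lay above 1, against 29 of 69. The 29 were 13 of 22 on III, 12 of 27 on IV and 4 of 20 on V. Isolated peaks showed the same order, with a median of 1.26 over 9 on II against 0.94 over 70 on the other 3. Of these isolated peaks, 7 of the 9 on II and 25 of the 70 lay above 1. None of these differences between chromosomes was tested.

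**Figure D5:**
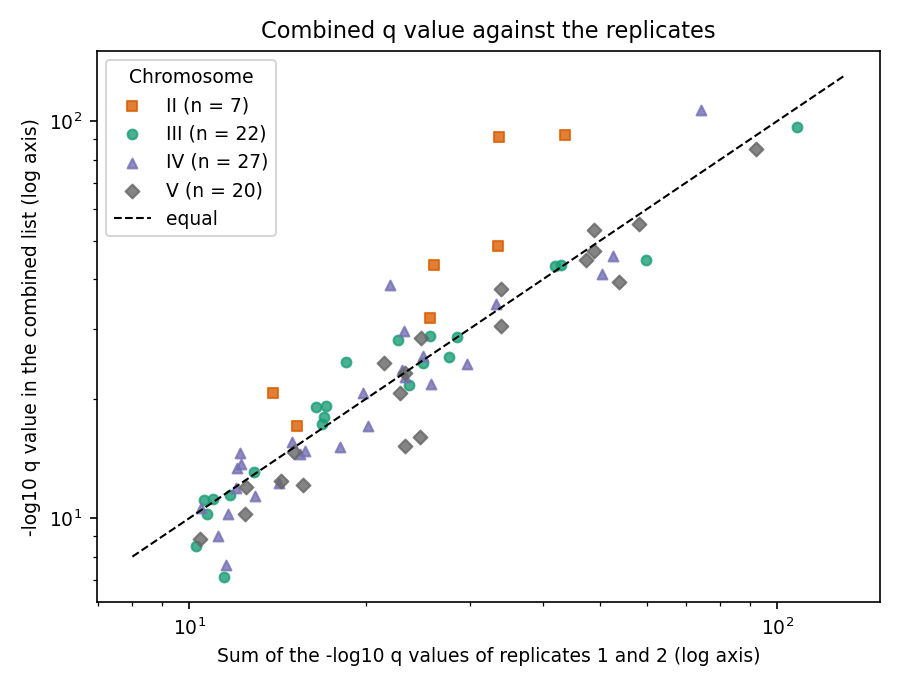
Combined −log10 q value (vertical log axis) against the sum of the −log10 q values of replicates 1 and 2 (horizontal log axis) for the 76 closely spaced peaks found in both, by chromosome; the dashed line marks equal values. All 7 peaks on II lie above the line, against 29 of 69 on III, IV and V.

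Over these 76 peaks the replicates ranked the q values alike, with a Spearman's rho of 0.82 between replicates 1 and 2. This is a description across peaks of the same libraries. The value was higher in replicate 2 for 71 of the 76, with a median ratio of 1.52. Peaks found in both replicates had a median combined −log10 q value of 21.1 and a median width of 1219 bp. The 61 found only in replicate 2 had 9.46 and 647 bp, and the 83 found in neither had 5.5 and 642 bp. The 4 found only in replicate 1 lay between 6.34 and 8.46.

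Almost no replicate signal near the runs was missing from the combined list. A single replicate region that overlaps no combined peak lay within 5000 bp of a closely spaced peak. This was V 6319277 to 6319691 in replicate 2, with a −log10 q value of 4.41, at a distance of 4072 bp. Replicate regions without a combined peak and with values above 20 were present in these centres only on II and V, at 66379 bp or more from a closely spaced peak. On II they had 95.7 in replicate 1 (II 8818070 to 8821513) and 165 in replicate 2 (II 8818077 to 8821496). On V the largest values were 73.2 in replicate 1 (V 12551502 to 12553796) and 219 in replicate 2 (V 12548609 to 12556480). Closely spaced peaks reached at most 47.3 in replicate 1 and 60.7 in replicate 2. Why these regions are absent from the combined list was not tested.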

How the data were processed

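Per the file headers, intervals are on WormBase WS180 and were called with PeakSeq. The authors deposited 1 q value (an adjusted p-value) per interval. The aligner, caller version, thresholds, control and reads behind the combined list are not stated in the labels or headers. Replicate 2 had 1320 lines and 760 distinct intervals, and its overlapping lines were merged into 662 regions, each with its smallest q value. Replicate 1 had 409 regions. Gaps were counted as the bases between facing edges, and overlap meant at least 1 shared bp. With 2 ChIP lists and no other group to set them against, no test over samples was possible, and regions were not treated as replicates. Shares have 95% Wilson intervals. Depth is unknown. Peaks to name were chosen by run length, q value, width, gap and recovery. The runs of 3 and 4 peaks described singly and the runs on II and V with a changed order were chosen after their values were seen. So were the other members of runs around a named peak. The chromosome comparison of combined and replicate q values, the classes by q value and the replicates' own spacing were also chosen then. The peaks and comparisons were selected with earlier results of these data known. Counting was tested on simulated intervals. Python 3.11.15, numpy 2.4.6, pandas 2.3.3, statsmodels 0.14.6 and matplotlib 3.10.9 were used.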

Additional observations from a re-analysis of the deposited data

How the results depend on the processing

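No paired analysis was possible because the Input libraries have no peak list here and the results come from no test. The count of joined pairs in each replicate was 0 under all 6 alternatives. These were gap limits of 2000 and 10000 bp, q at most 1e-10, reciprocal overlap of 50%, unmerged intervals and chromosome II left out. Only the 10000 bp limit could have raised a count of 0, so the other settings were no check on it. Limiting the combined list to q of at most 1e-10 left 61 closely spaced peaks in 27 runs, with 93.4% found in at least 1 replicate. In the full list, replicate 2 alone found 90.3% of isolated centre peaks between −log10 q values of 10 and 20. At 20 and above it found 100.0%, so the 93.4% is not a result about close spacing. With the q limit, pairs separate in replicate 2 were 29. The strongest peak was the same in 22 runs in replicate 1 and 23 in replicate 2, against 52 and 67 in the full list. These runs were counted among 27 with the q limit and among 88 in the full list. The share found in at least 1 replicate was 61.2% without replicate 1 and 35.7% without replicate 2. All other counts stayed within 1.5 times the reported ones, with 157 peaks at 2000 bp and 276 at 10000 bp, and the share found stayed between 58.5% and 68.8%. Unknown depth limits every statement on peaks found in neither replicate.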
